A study of Mus musculus with 8 samples.

Results

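Genes of T cells and natural killer (NK) cells were read in RNA of splenic B cell preparations, as a group of 35 genes fixed by name: 18 genes of T cells and 17 genes of NK cells and cytotoxic lymphocytes. Of these, 32 had a probe set named for that gene alone, 16 of T cells and 16 of NK and cytotoxic cells, out of 18193 genes with such a probe set among the 45101 probe sets of the array. The brightest such probe set over all 8 arrays stood for each gene. The signals of Lck, Tcf7 and Klrb1c were not analysed here. The study compared mature B cells from spleens of 12-week-old mice without Irf4 (irf4-/-, called Irf4 null, 4 arrays) and of their irf4+/+ littermates (wild type, 4 arrays), all on the C57BL/6 strain, to find RNAs that differ with genotype. Irf4 encodes a transcription factor of lymphocytes. Cells were enriched by magnetic removal of non-B cells, so B cells themselves were not captured, and a T or NK cell that escaped removal stayed in the sample. The genotype is that of the mouse, and any T or NK cell in an Irf4 null preparation therefore came from an Irf4 null animal.

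T cells recognise antigen through a receptor that signals through the CD3 chains and the zeta chain, with CD4 or CD8 as coreceptors. NK cells carry no such receptor. They read inhibitory and activating lectin-like receptors, many of which pair with CD94 (Klrd1), and kill by releasing perforin and granzymes or through Fas ligand. Cytotoxic T cells use the same killing machinery, so genes such as Prf1, Gzmb, Nkg7, Ccl5, Il2rb, Txk and Sh2d2a belong to both. A few of the genes are not confined to these cells. Cd2 and Lef1 are also transcribed in mouse B cells or their precursors, and Ccl5 in several activated leukocytes.

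Signals are the authors' MAS5 intensities on a linear scale, and differences are on the scale of log2(signal + 16), Irf4 null minus wild type unless stated. Trimmed means were all 500.003 and median signals ran from 76.9 to 92.2. B cell markers were bright on all arrays, with Cd79b between 19326 and 24860.5. Irf4 itself gave 2035, 1719.9, 1779 and 2341 on wild-type against 285, 259, 244 and 315 on Irf4 null arrays. No label gives the animals' sex. Xist, the RNA of the inactive X chromosome, was 17119 or more on wild-type arrays 1, 3 and 4 and Irf4 null array 1 and 94.8 or less on the others, which are called Xist-high and Xist-low here. Markers of other leukocytes followed that split. Neutrophil markers (10 genes) stood 2.22 above the wild-type mean on wild-type array 2, 0.18 above it on Irf4 null array 1, and 1.19 to 2.58 above it on Irf4 null arrays 2 to 4. Whether the arrays come from separate animals is not stated, so each p-value below reflects spread among samples that could in part be technical in origin. Both Xist classes occur within each genotype, so the arrays of a genotype do not all repeat 1 sample.

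On Irf4 null array 3 nearly all T cell genes were at their highest, while wild-type array 2 and the other Irf4 null arrays were raised less or not at all. Most NK and cytotoxic genes instead were high on wild-type array 2 and on all 4 Irf4 null arrays. Of the 16 T cell genes 14 had their highest signal on Irf4 null array 3, as did 12 of the 16 NK and cytotoxic genes. Over all 27022 probe sets tested, 11.3% were highest there. In RNA of a whole preparation, fewer cells of a type and less RNA per cell cannot be told apart.

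**Figure D1:**
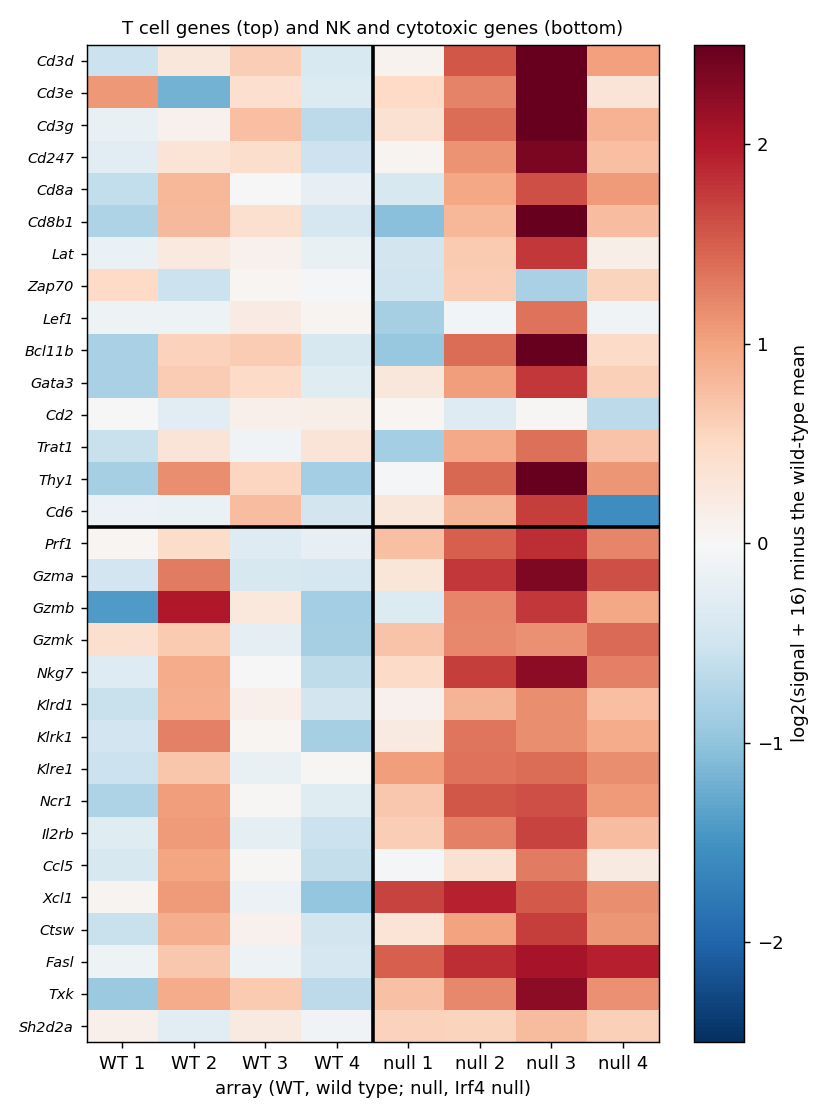
Each row is a gene (15 T cell genes above the line, without the very dim Cd4, and 16 NK and cytotoxic genes below it) and each column an array. Colour gives log2(signal + 16) minus the wild-type mean of that gene, with the scale ending at 2.5, and most T cell genes are darkest on Irf4 null array 3, while most NK genes are raised on wild-type array 2 and on every Irf4 null array (Gzmb and Ccl5 are not on Irf4 null array 1).

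Among receptor genes, the CD3 chains carry the signal of the T cell receptor into the cell. Cd3d, the delta chain, read 141, 259, 332 and 159 on wild-type arrays 1 to 4 and 223, 647, 2516 and 442 on Irf4 null arrays 1 to 4. Cd3g, the gamma chain, had signals of 167, 208, 335 and 116 on wild-type arrays, against 255, 537, 1430.0 and 363 on Irf4 null arrays. Both were far higher on Irf4 null array 3 than on any other array, and Irf4 null array 1 lay within the wild-type range. The epsilon chain gene Cd3e was dim, at 106, 9.37, 60.9 and 29.3 on wild-type and 64.6, 119, 309.8 and 56.0 on Irf4 null arrays, and peaked on the same array. Cd247, the zeta chain that NK cells also use, read 71.7, 117, 125 and 57.2 across wild-type and 94.2, 211, 517 and 162 across Irf4 null arrays. Irf4 null arrays 3, 2 and 4 were again the highest, in that order.

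Among the coreceptors, Cd4 was very dim: its probe set read 7.78 to 9.35 over the wild-type and 6.86 to 12.2 over the Irf4 null arrays, far below 42.9, the signal at the cut between tested and dim probe sets. This does not show that CD4 T cells were absent, since the table holds no detection calls and the other Cd4 probe set was lower still. Cd8a, the alpha chain of CD8, gave 119, 353, 191 and 164 on wild-type against 140.4, 390.2, 618 and 416 on Irf4 null arrays. Here wild-type array 2 lay close to Irf4 null arrays 2 and 4, unlike in Cd3d. Cd8b1, the beta chain, which in contrast to Cd8a is not carried by CD8-positive dendritic cells, had signals of 92.7, 309, 230.1 and 122 on wild-type arrays, against 73.6, 316, 1357 and 303 on Irf4 null arrays. Irf4 null array 1 had the lowest Cd8b1 signal of the 8 arrays.

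Signalling and adaptor genes of T cells followed the CD3 chains in part. Lat, the membrane adaptor downstream of ZAP-70, read 197, 266, 241 and 194 across wild-type and 158, 361, 801 and 247 across Irf4 null arrays, highest on array 3 and lowest on array 1 of the same genotype. Trat1, a partner of the receptor complex, read 33.2, 75.0, 52.7 and 75.1 on wild-type, then 24.4, 124, 173 and 104 on Irf4 null arrays. The kinase gene Zap70 went against the other genes on its brightest probe set, with 394, 183, 285 and 269 on wild-type and 188, 429, 149 and 410.3 on Irf4 null arrays. Its remaining probe sets, 2 in all, were dimmer and behaved differently. One gave 52.6, 89.4, 50.9 and 51.0 on wild-type against 124, 181, 296 and 149 on Irf4 null arrays, and the other 54.3, 135, 71.8 and 50.8 on wild-type, then 122, 276, 278 and 193 on Irf4 null arrays. On both dimmer probe sets Irf4 null array 3 was highest, and on the brightest probe set it was lowest.

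Among transcription factors of the T lineage, Bcl11b had signals of 61.2, 184, 193 and 86.6 on wild-type arrays, against 53.7, 338, 753 and 172 on Irf4 null arrays, and its 3 other probe sets also peaked on Irf4 null array 3. Lef1, which partners with beta-catenin, read 438, 439, 559 and 505 on wild-type, then 264, 461, 1255 and 452 on Irf4 null arrays, so 6 of its 8 signals lay between 438 and 559 and the peak on array 3 stood out. Gata3 was too dim to be tested, at 7.65, 48.9, 42.6 and 17.8 on wild-type and 34.95, 69.7, 126 and 47.0 on Irf4 null arrays. Thy1, a surface glycoprotein of T cells, read 69.1, 321, 203 and 67.8 across wild-type and 132, 392, 1081 and 309 across Irf4 null arrays. Thy1 was the T cell gene with the largest excess on wild-type array 2 over the other wild-type arrays (1.54). Cd6, a scavenger receptor family protein of T cells, was dim, with 40.5, 39.2, 89.9 and 29.2 on wild-type, then 59.4, 96.2, 189 and 5.27 on Irf4 null arrays. Cd2 was bright on every array, from 4824 to 6376 in wild type and from 3681 to 5985 in Irf4 null, and did not follow the CD3 chains.

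Among genes of granule proteins, Gzma, granzyme A, gave 1051, 3630.3, 1108 and 1089.8 on wild-type against 1805, 5046, 7410.4 and 4506 on Irf4 null arrays. Wild-type array 2 stood apart from the other wild-type arrays, and Irf4 null array 1 lay between them and its own group. Gzmb, granzyme B, had signals of 36.1, 543, 153 and 61.2 on wild-type arrays, against 93.7, 307, 458 and 258 on Irf4 null arrays, and its highest signal was on wild-type array 2. Gzmk, a granzyme of memory CD8 T cells, was dim and read 69.4, 86.7, 39.5 and 20.6 on wild-type, then 90.0, 133, 128 and 156 on Irf4 null arrays, with no overlap between the genotypes. Nkg7, a granule membrane protein, read 277, 681, 352 and 220.4 across wild-type and 494, 1195, 1693 and 860.3 across Irf4 null arrays. The cathepsin W gene Ctsw read 159, 461, 259.5 and 171 on wild-type, then 307, 501, 831 and 531 on Irf4 null arrays. In both of these, wild-type array 2 exceeded Irf4 null array 1. Prf1, the pore-forming perforin, gave 160.1, 217, 119.8 and 132 on wild-type against 270.5, 463, 589.9 and 379.6 on Irf4 null arrays, and all Irf4 null arrays were above all wild-type arrays.

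NK receptor genes were likewise high on wild-type array 2. Klrd1, the CD94 subunit, had signals of 454, 1285, 741 and 486 on wild-type arrays, against 732, 1236, 1547 and 1153 on Irf4 null arrays. Klrk1, the activating receptor NKG2D, read 187, 665, 275 and 143 on wild-type, then 316, 703, 613 and 525 on Irf4 null arrays. On both genes wild-type array 2 lay within the range of Irf4 null arrays 2 to 4. Ncr1, the NKp46 receptor that defines NK cells, read 86.8, 346, 162 and 126 across wild-type and 265, 495, 518 and 348 across Irf4 null arrays. Klre1, a lectin-like receptor of NK cells, gave 127, 317, 166 and 194 on wild-type against 408, 511, 526 and 449 on Irf4 null arrays, without overlap. Il2rb, the beta chain shared by the receptors of interleukins 2 and 15, read 92.3, 263, 99.1 and 76.5 on wild-type, then 189, 306, 414 and 212 on Irf4 null arrays, with Irf4 null arrays 1 and 4 below wild-type array 2.

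Secreted and death-inducing ligands differed from each other. Ccl5, a chemokine stored by cytotoxic cells, had signals of 1816, 4774, 2454 and 1579 on wild-type arrays, against 2346, 3134, 5919 and 2830.2 on Irf4 null arrays, and wild-type array 2 was the second highest of the 8. Xcl1, the chemokine that attracts XCR1-positive dendritic cells, read 121, 259, 103 and 51.3 across wild-type and 411, 484, 367 and 278 across Irf4 null arrays. Fasl, the ligand of the death receptor Fas, gave 59.2, 115, 59.7 and 45.4 on wild-type against 216, 278, 325 and 299.5 on Irf4 null arrays. For both ligands the genotypes did not overlap, and Irf4 null array 1 was well above wild-type array 2. Of the signalling genes, the Tec family kinase gene Txk read 34.2, 166, 136 and 44.6 on wild-type, then 144, 205, 433 and 194 on Irf4 null arrays and overlapped between genotypes. Sh2d2a, the T cell specific adaptor, had signals of 248, 184, 266 and 210.1 on wild-type arrays, against 343, 337, 398 and 347 on Irf4 null arrays. It was the sole NK or cytotoxic gene that was lower on wild-type array 2 than on the mean of the other wild-type arrays.

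T cell and NK cell genes were thus high on partly different arrays. The mean over the 16 T cell genes, relative to wild type, was -0.26, 0.18, 0.34 and -0.26 on wild-type arrays 1 to 4 and -0.22, 0.85, 1.77 and 0.39 on Irf4 null arrays 1 to 4. The mean over the 16 NK and cytotoxic genes was -0.39, 0.91, -0.01 and -0.52 over wild-type arrays 1 to 4 and 0.59, 1.29, 1.62 and 1.08 over Irf4 null arrays 1 to 4. The NK and cytotoxic mean was above the wild-type mean on every Irf4 null array, and the T cell mean on arrays 2 to 4 alone. Single genes differed from these means on Irf4 null array 1. Gzmb (-0.35) and Ccl5 (-0.04) were below their wild-type mean there. Some T cell genes, such as Cd3e (0.49), were above it and others, such as Cd8b1 (-1.05), below it.

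**Figure D2:**
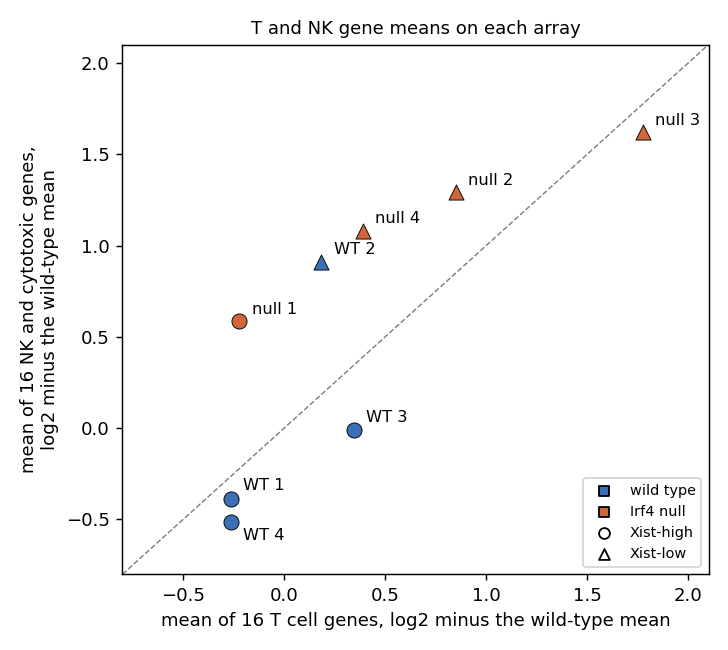
Each point is an array, placed by its mean over 16 T cell genes (horizontal axis) and 16 NK and cytotoxic genes (vertical axis), both as log2(signal + 16) minus the wild-type mean, with the dashed line marking equal values. Wild-type array 2 (0.18 and 0.91) and Irf4 null arrays 1, 2 and 4 lie above the line, wild-type arrays 1, 3 and 4 and Irf4 null array 3 below it.

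Differences between single arrays, which carry no test, show the same separation. Irf4 null array 3 exceeded the mean of Irf4 null arrays 2 and 4 by a median of 1.42 over the 16 T cell genes, with 15 of them higher, and by 0.42 over the 16 NK and cytotoxic genes, with 14 higher. Wild-type array 2 exceeded the other wild-type arrays by a median of 0.35 over T cell genes (10 of 16 higher) and 1.24 over NK genes (15 of 16 higher). Among the 4 Xist-high arrays, Irf4 null array 1 was above the mean of wild-type arrays 1, 3 and 4 for all 16 NK and cytotoxic genes, by a median of 0.85, with Xcl1 (2.05) and Fasl (1.72) furthest up. For T cell genes 7 of 16 were above, and the median was -0.08. Over all tested probe sets these 3 differences had medians of -0.02, -0.04 and -0.02.

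Markers of other cell types also differed between these arrays. On Irf4 null array 3 red cell precursor RNA was high as well: Slc4a1, the band 3 anion exchanger, read 7415 there against 216 to 1253 on the other Irf4 null arrays, and Alas2, an enzyme of heme synthesis, read 1690.0 against 40.8 to 335. The part of this in the T cell gene peak was not tested. On wild-type array 2 the 18 monocyte, macrophage and dendritic cell markers stood 1.05 above the wild-type mean, and on Irf4 null array 1 they stood 0.40 below it. The mean of NK and cytotoxic genes was up on both. Neutrophil markers on Irf4 null array 1 stood at 0.18, against -0.77, -0.69 and -0.76 on wild-type arrays 1, 3 and 4. The part of other leukocyte RNA in the NK and cytotoxic mean was not tested. The mean over 11 B cell markers ranged from -0.21 to 0.12 across arrays, relative to the wild-type mean. Of the 11, 1 (Fcer2a) was called lower in Irf4 null (-1.17 ± 0.17, limma, adjusted p = 0.003), against 1.51% of all tested probe sets, and none higher.

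The comparison of genotypes asked which of these genes differ with the loss of Irf4. Of the 30 genes that passed the filter on dim probe sets, 5 rose in Irf4 null and none fell (limma, adjusted over 27022 probe sets). All 5 were of the NK and cytotoxic group: Fasl, Prf1, Klre1, Xcl1 and Sh2d2a. Prf1 and Sh2d2a are among the genes named above that cytotoxic T cells share. By comparison, 2.01% of all probe sets tested were called higher and 1.51% lower. None of the 14 tested T cell genes passed, although 4 had an unadjusted p below 0.05 (limma), as did 14 of the 16 NK and cytotoxic genes and 17.1% of all tested probe sets. The median difference was 0.83 over the tested T cell genes, 1.17 over NK and cytotoxic genes and 0.00 over all tested probe sets. Without Irf4 null array 3 the T cell median was 0.29 and the NK and cytotoxic median 1.06. The filter dropped Cd4 and Gata3, so these counts are not over all genes listed.

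Fasl rose by 1.83 ± 0.23 (SE, n = 4 and 4; limma, adjusted p = 0.00186), from a mean signal of 69.7 ± 30.7 (SD) to 279.7 ± 46.4. Prf1 rose by 1.33 ± 0.24 (adjusted p = 0.0122), from 157 ± 43.2 to 426 ± 135. Klre1 rose by 1.24 ± 0.22 (adjusted p = 0.0129), from 201 ± 82.2 to 474 ± 54.9. These 3 genes kept their calls whichever array was left out. Xcl1 rose by 1.58 ± 0.35 (adjusted p = 0.0342) and Sh2d2a by 0.63 ± 0.14 (adjusted p = 0.0327), and these calls were less secure: Xcl1 passed in 1 and Sh2d2a in 2 of the 8 fits that left out an array. Without wild-type array 2, the calls grew to 14 of the 16 NK and cytotoxic genes, all but Gzmb and Ccl5, and still held no T cell gene. The calls over all probe sets grew too in that fit, to 4.8% higher and 3.24% lower. That array also held more neutrophil RNA than the other wild-type arrays (above), and the part of this in the count was not tested. Without any other single array, between 3 and 5 genes were called.

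**Figure D3:**
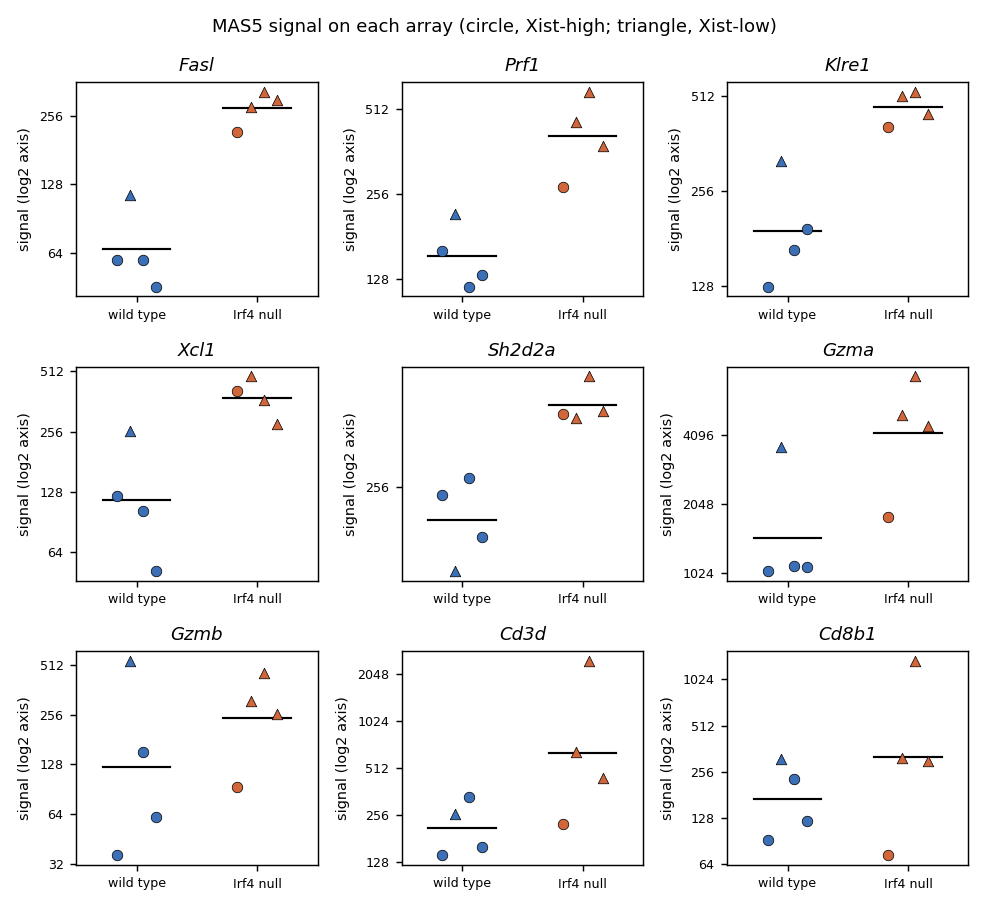
Each panel shows a gene's signal on each array, with a log2 vertical axis, wild type in blue and Irf4 null in orange, circles for Xist-high and triangles for Xist-low arrays, and a line at the mean taken on the log2(signal + 16) scale. Genotypes separate for Fasl, Prf1, Klre1, Xcl1 and Sh2d2a, while Gzma and Gzmb on wild-type array 2 overlap with Irf4 null, and Cd3d and Cd8b1 peak on Irf4 null array 3.

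All 4 Irf4 null arrays lay above all 4 wild-type arrays for 6 of the 16 NK and cytotoxic genes (the 5 called genes and Gzmk) and for none of the 16 T cell genes. That pattern held for 5.48% of all tested probe sets. The reverse, all Irf4 null arrays below, held for no gene of either group and for 5.33% of all tested probe sets. Gzmk had a difference of 1.11 ± 0.31 (limma, adjusted p = 0.0861) and did not pass. The larger differences among genes that did not pass were those of Cd3d (1.53 ± 0.58, limma, adjusted p = 0.196), Gzma (1.50 ± 0.46, adjusted p = 0.11) and Nkg7 (1.43 ± 0.38, adjusted p = 0.0711). Without Irf4 null array 3 the Cd3d difference was 0.88 (limma, adjusted p = 0.276).

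Other genes of the CD3 complex and the surface of T cells gave differences that did not pass, at 1.36 ± 0.46 for Cd3g, 1.14 ± 0.54 for Cd3e, 1.07 ± 0.41 for Cd247 and 1.34 ± 0.59 for Thy1. The coreceptor genes Cd8a and Cd8b1 were at 0.81 ± 0.41 and 0.86 ± 0.67, and the transcription factor genes Bcl11b and Lef1 at 0.86 ± 0.62 and 0.09 ± 0.35. Lat was at 0.53, Trat1 at 0.55, Cd6 at 0.33, Zap70 at -0.03 and Cd2 at -0.23. Among NK and cytotoxic genes without a call, Txk was at 1.33 ± 0.44, Ncr1 at 1.22 ± 0.35, Il2rb at 1.08 ± 0.34 and Ctsw at 1.04 ± 0.34. Klrk1 (0.92), Gzmb (0.90), Klrd1 (0.72) and Ccl5 (0.47) had smaller differences. All 16 NK and cytotoxic genes and 12 of the 14 tested T cell genes had a positive difference, against 13669 of 27022 probe sets.

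Several genes had more than 1 probe set, and these did not always match. The dimmer Fasl probe set differed by 1.18 ± 0.30 (limma, adjusted p = 0.0589) in the same direction. The dimmer Prf1 probe set read 54.2 to 121 in Irf4 null and differed by -0.14 ± 0.25, so the rise of Prf1 rests on 1 probe set. For Zap70 the dimmer probe sets, looked at after their values were seen, rose by 1.36 ± 0.26 and 1.33 ± 0.31 (limma, adjusted p = 0.0181 and 0.041), while the brightest differed by -0.03. The mean over all its probe sets also rose (0.89, limma, adjusted p = 0.0377). For the 5 Cd8a probe sets and the 4 Bcl11b probe sets no call was made.

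Upstream sequence is shown for the genes called between genotypes that are in the RefSeq promoter table, and for Cd3d, a T cell gene without a call. Sequences are the 250 bases before the gene's start in GRCm38.p6 from RefSeq, 5′ to 3′ on the gene's strand, and capitals mark a match on either strand to the letters TCACACC of T-box factors, TGTGGTT of Runx factors, AGGAAGT of ETS factors and AGATAA of GATA factors, or to an ETS-IRF composite or an ISRE core.
Fasl, chr1:161788496-161788745, minus strand: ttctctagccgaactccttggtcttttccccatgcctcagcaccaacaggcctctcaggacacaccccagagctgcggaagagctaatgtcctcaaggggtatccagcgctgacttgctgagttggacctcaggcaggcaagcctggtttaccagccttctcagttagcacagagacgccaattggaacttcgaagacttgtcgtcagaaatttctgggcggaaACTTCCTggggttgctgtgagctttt
Prf1, chr10:61297586-61297835, plus strand: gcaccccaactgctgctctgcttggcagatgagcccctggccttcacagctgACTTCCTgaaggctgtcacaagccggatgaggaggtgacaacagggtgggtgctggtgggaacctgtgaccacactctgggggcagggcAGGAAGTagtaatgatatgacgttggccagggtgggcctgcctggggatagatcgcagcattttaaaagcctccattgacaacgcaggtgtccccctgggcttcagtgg
Klre1, chr6:129577963-129578212, plus strand: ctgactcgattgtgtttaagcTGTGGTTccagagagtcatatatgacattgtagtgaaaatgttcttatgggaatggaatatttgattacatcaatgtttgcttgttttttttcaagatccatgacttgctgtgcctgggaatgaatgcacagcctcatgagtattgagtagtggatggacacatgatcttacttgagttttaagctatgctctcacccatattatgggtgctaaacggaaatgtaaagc
Xcl1, chr1:164935523-164935772, minus strand: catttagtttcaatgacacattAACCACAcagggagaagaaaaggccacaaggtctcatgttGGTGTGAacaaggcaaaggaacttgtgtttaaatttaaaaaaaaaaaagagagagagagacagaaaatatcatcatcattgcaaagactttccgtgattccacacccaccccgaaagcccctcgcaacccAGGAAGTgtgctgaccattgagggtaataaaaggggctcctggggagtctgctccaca
Cd3d, chr9:44981536-44981785, plus strand: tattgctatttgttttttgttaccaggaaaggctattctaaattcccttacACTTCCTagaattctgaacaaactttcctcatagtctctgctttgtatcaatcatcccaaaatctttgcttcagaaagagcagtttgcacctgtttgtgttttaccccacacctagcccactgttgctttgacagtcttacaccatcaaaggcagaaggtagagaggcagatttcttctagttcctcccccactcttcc

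In these windows Fasl had an ETS match starting 26 bases before the start, Prf1 had ETS matches at 198 and 109 bases, and Klre1 had a Runx match at 229 bases. Xcl1 had a Runx match at 228, a T-box match at 188 and an ETS match at 58 bases, and Cd3d an ETS match at 199 bases. The promoter table held 12 of the 17 NK and cytotoxic genes and 13 of the 18 T cell genes. Runx letters occurred in 6 of the 12 (Gzma, Gzmb, Klrk1, Klre1, Ncr1 and Xcl1) and in 1 of the 13 (Lck), against 4.46% of 27025 genes. T-box letters occurred in 3 of the 12 (Gzmk, Nkg7 and Xcl1) and 1 of the 13 (Trat1), against 3.31% of all genes. ETS letters were in 4 of each group, against 7.8%, and GATA letters in Cd3g alone, against 10.3%. The ETS-IRF composite, the kind of site that IRF4 can bind with an ETS partner, was in Cd8a and Klrk1 (2.38% of all genes) and the ISRE core in Gzma (3.04%). The last 2 patterns can overlap each other and the ETS letters. Matches are descriptions of letters, not of binding.

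To ask which genes differed beyond a shared level of T and NK cell RNA, the same fit was made with an array score as a covariate. The score was the mean over 14 other T cell markers and 18 other NK cell markers, none of them among the 35 genes. Klrg1 and the signalling genes Cd28, Prkcq and Skap1, which belong to lists described further on, are in the score. It stood at -0.27, 0.62, -0.02 and -0.33 on wild-type arrays 1 to 4 and at 0.05, 0.95, 1.28 and 0.62 on Irf4 null arrays 1 to 4. Many genes followed the score: its slope was positive and passed the threshold for 9 of 16 NK and cytotoxic genes and 4 of 14 T cell genes, against 0.607% of all tested probe sets. No gene had a negative slope that passed, against 0.037% of all tested probe sets. Nkg7 had a slope of 1.46 ± 0.11 (limma, adjusted p = 0.00103), Gzma of 1.72 ± 0.17 (adjusted p = 0.00222), Thy1 of 2.17 ± 0.26 (adjusted p = 0.00768) and Cd8b1 of 2.34 ± 0.37 (adjusted p = 0.0219). Sh2d2a (-0.05 ± 0.17), Cd2 (-0.17 ± 0.18) and the brightest Zap70 probe set (-0.35 ± 0.39) had slopes near or below 0.

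Given the score, 1 of the 30 genes passed for genotype. Fasl rose by 1.35 ± 0.23 (limma, adjusted p = 0.0156), where 0.873% of all probe sets were called higher and 0.529% lower. This call rests on 1 probe set. The dimmer Fasl probe set differed by 0.78 ± 0.37 given the score and did not pass (limma, adjusted p = 0.447). The same gene alone passed with a score of T cell markers, with a score of NK cell markers and with the Xist class added. It lost the call without Irf4 null array 1 (1.19, limma, adjusted p = 0.246) or array 4 (1.28, adjusted p = 0.0615). The remaining differences among the called genes were 0.78 ± 0.19 for Prf1 (adjusted p = 0.0906), 0.81 ± 0.23 for Klre1 (adjusted p = 0.143), 0.66 ± 0.19 for Sh2d2a (adjusted p = 0.152) and 1.07 ± 0.41 for Xcl1 (adjusted p = 0.312). Sh2d2a kept the size of its difference, and its standard error grew. For Nkg7, which followed the score closely, the difference shrank from 1.43 to 0.37.

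Of the 14 tested T cell genes, 5 had a difference above 0 in this fit, against 12 with genotype alone. These signs moved with single arrays: none of the 14 was above 0 without wild-type array 2, and 7 were without Irf4 null array 1. Their median difference was -0.24, against 0.35 over NK and cytotoxic genes and 0.01 over all tested probe sets, and none passed (limma; 0 of 14 had an unadjusted p below 0.05, while 6 of the 16 NK and cytotoxic genes and 11.5% of all tested probe sets did). Without wild-type array 2 the T cell median was -0.75, and without Irf4 null array 1 it was -0.01 and that of NK and cytotoxic genes 0.13. Cd8b1 was at -0.83 ± 0.40 and Bcl11b at -0.69 ± 0.39; among the NK and cytotoxic genes Gzmb was at -0.80 ± 0.39 and Ccl5 at -0.43 ± 0.19. The score rests on 8 arrays and is itself higher in Irf4 null, and the other NK markers tested had a median genotype difference of 0.90, so a difference that NK genes have in common is partly taken out. With a score of myeloid, red cell and platelet markers in its place, chosen after seeing the data, 5 genes passed: Fasl (1.54), Prf1 (1.03), Klre1 (0.94), Gzma (0.78) and Sh2d2a (0.71). In that fit 1.93% of all probe sets were called higher and 1.28% lower.

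**Figure D4:**
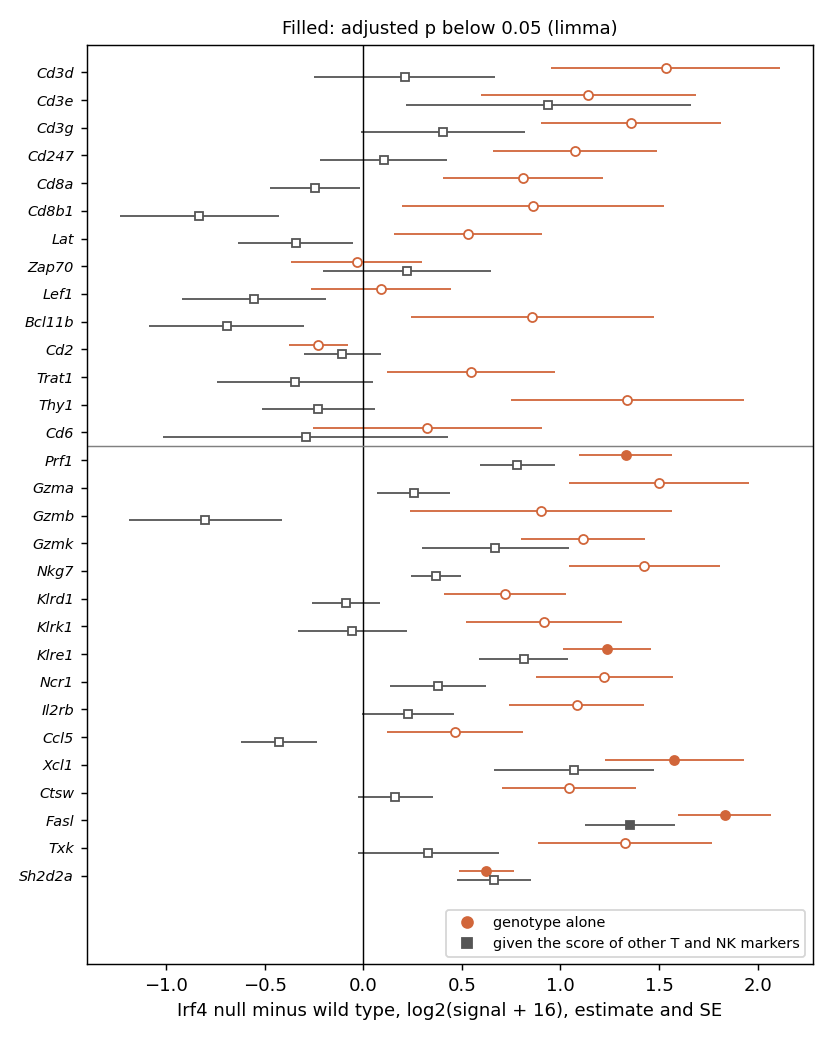
Points give Irf4 null minus wild type on the log2(signal + 16) scale with SE bars for 30 genes, from the fit with genotype alone (orange circles) and from the fit given the score of other T and NK cell markers (grey squares), and filled points have an adjusted p below 0.05. Given the score, 9 of the 14 T cell genes lie below 0, and Fasl alone stays filled.

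The Xist split, chosen with earlier results of these data known, was fitted beside genotype, since wild-type array 2 and Irf4 null array 1 are the arrays that break the link between them. In Xist-low arrays 8 of the 30 genes were higher and none lower (limma), against 1.86% of all probe sets higher and 0.207% lower. Gzma was higher by 1.67 ± 0.15 (adjusted p = 0.000478) and Gzmb by 2.17 ± 0.39 (adjusted p = 0.0173). Cd8a (1.36), Klrk1 (1.30), Nkg7 (1.25), Ctsw (1.07), Ncr1 (1.06) and Klrd1 (1.01) were the others, so 7 of the 8 were NK or cytotoxic genes. The dimmer Cd8a probe sets were higher by 0.35 to 1.28 without passing (limma, adjusted p from 0.0514 to 0.621). Of the dimmer Zap70 probe sets, 1 passed (0.97, limma, adjusted p = 0.0393) and the other did not (0.64, adjusted p = 0.282). The brightest Zap70 probe set was at -0.05. All Xist-low arrays lay above all Xist-high arrays for 10 of 16 NK and cytotoxic genes and 5 of 16 T cell genes (5.38% of all tested probe sets), and all lay below for none (3.96%). Without wild-type array 2 Gzma alone passed, and without Irf4 null array 1 the count was 4 (Gzma, Gzmb, Klrd1 and Klrk1). Over all probe sets the share called higher was 0.0888% without the first of these arrays and 1.95% without the second. None of the 5 genes called between genotypes was among the 8. This rests on the threshold: of the 5, Prf1 (0.69), Fasl (0.67), Xcl1 (0.63) and Klre1 (0.59) were also higher in Xist-low arrays. Their adjusted p (limma) ran from 0.0957 to 0.523, and Sh2d2a was at -0.15. With the Xist class as a second term, 5 genes again passed for genotype: Fasl (1.50), Prf1 (0.99), Klre1 (0.94) and Sh2d2a (0.70), with Gzma (0.67) in place of Xcl1 (1.26, limma, adjusted p = 0.109). For genotype in that fit, 1.41% of all probe sets were called higher and 0.947% lower. Neutrophil markers were higher in Xist-low arrays for 8 of 10 genes (median 2.38, limma) and monocyte, macrophage and dendritic cell markers for 8 of 18 (median 1.06), while none of 11 B cell markers was called. Of these 11, 4 had an unadjusted p below 0.05 (limma), against 12.8% of all tested probe sets. None of the 11 had a difference above 0, and their median was -0.17. Sex, neutrophil RNA and the preparation of these arrays cannot be told apart.

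Neighbouring genes of the same pathways gave context. Of 12 other NK cell markers tested, Klrg1, an inhibitory receptor of mature NK and effector T cells, rose by 1.40 ± 0.31 (limma, adjusted p = 0.0344), with signals of 101, 202, 124 and 92.3 on wild-type, then 207, 391, 631 and 305 on Irf4 null arrays, and the median over the 12 was 0.90. It was the 1 of the 12 called, against 2.01% of all tested probe sets called higher. An unadjusted p below 0.05 (limma) was found for 10 of the 12, against 17.1% of all tested probe sets. Of 12 other T cell markers none passed (4 at an unadjusted p below 0.05, limma, against 17.1% of all tested probe sets), with a median of 0.74. None of 20 components of T cell receptor signalling passed (6 at an unadjusted p below 0.05, limma, against the same share), several of which B cells also transcribe, with a median of 0.07. Among 10 tested genes of granule release, content and protection, 2 rose, against 2.01% of all tested probe sets. Of the 10, 5 had an unadjusted p below 0.05 (limma), against 17.1%. Lyst, a regulator of lysosomes and lytic granules, read 2634, 3631, 3540.0 and 3082 across wild-type and 5397, 6099.7, 6584 and 6592 across Irf4 null arrays and rose by 0.94 ± 0.11 (limma, adjusted p = 0.00103). Serpinb9, the granzyme B inhibitor, read 306, 562, 294 and 258 on wild-type, then 662, 825, 870.0 and 872 on Irf4 null arrays and rose by 1.21 ± 0.21 (limma, adjusted p = 0.0106). Given the score, Lyst kept its call at 0.75 ± 0.12 (limma, adjusted p = 0.0114) and Serpinb9 did not, at 0.77 ± 0.19 (limma, adjusted p = 0.0982). Tbx21, which encodes T-bet, a transcription factor of NK cells, T cells and some B cells, gave 169.7, 254, 220.4 and 168 on wild-type against 899.9, 1038, 1144 and 1123 on Irf4 null arrays. The genotypes were far apart, and wild-type array 2 stood close to the other wild-type arrays.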

How the data were processed

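RNA (6 µg) of 8 B cell preparations was hybridised to 1 array each, per the labels' protocols. The deposited intensities are MAS5 signals, per the submitters' processing notes. All arrays share 1 trimmed mean (2% cut at each end), as the values show; neither version nor scaling target is given in the sources used. No detection calls were used here. Names came from GEO's platform annotation (34958 with 1 symbol, 932 with several, 9211 unnamed), with symbols updated through RefSeq GRCm38.p6 (34754 matched), also the source of promoters (the first listed per gene).

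The 64 control probe sets were removed, values were taken as log2(signal + 16), and the lowest 40% by mean were dropped, leaving 27022. The fits were made with limma 3.58.1 (R 4.3.3) (variance trend, Benjamini-Hochberg over all 27022, threshold 0.05) and checked on simulated data; figures used matplotlib 3.10.9. All 35 genes were named by rule. The genes, the lists and the Xist split were chosen with earlier results of these data known. Xist-high means a signal above 1000. Alternatives were the pseudocount, filter, normalization, variance model, replicate block, score, Xist class, probe sets and each array left out.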

Additional observations from a re-analysis of the deposited data

Results flagged for a closer look

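Of 64 groups of 4 arrays, formed by 32 genes and both genotypes, 2 held an array far from the other 3 by Dixon's criterion on the log2 scale. Chance flags about 1 in 20 such groups. Gzma on wild-type array 2 read 3630.3, against 1051 to 1108 on the other wild-type arrays. Sh2d2a on Irf4 null array 3 read 398, against 337 to 347 on the other Irf4 null arrays.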

How the results depend on the processing

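Between genotypes the count of genes higher was 5, and it was 3 with no filter on dim probe sets, 12 with the replicate number as a block (adding Cd3d, Cd3g, Gzma, Nkg7, Ncr1, Ctsw and Txk), and 3 to 14 when each array was left out. The share of all probe sets called higher was 2.01%, and it was 1.04% with no filter and 2.55% with the block. With each array left out that share ran from 1.05% to 4.8%. Fasl and Klre1 passed in all 17 alternatives and Prf1 in 16, failing with the mean of all its probe sets (0.60, limma, adjusted p = 0.0892). Xcl1 passed in 7 and Sh2d2a in 9. None of the 5 called genes changed sign. With the Xist class as a term, uncalled genes changed sign at Cd8b1 (-0.045), Lef1 (-0.17), Trat1 (-0.025), Gzmb (-0.18) and Ccl5 (-0.029), and Zap70 became 0.89 with the mean of all its probe sets. When each array was left out Zap70 ran from -0.25 to 0.23, Lef1 from -0.33 to 0.40 and Cd6 from -0.14 to 0.95. Given the score the count was 1, and it was 0 with the replicate number as a block (Fasl 1.16, limma, adjusted p = 0.595), 5 with the score of myeloid, red cell and platelet markers that was chosen after seeing the data, and 0 to 1 when each array was left out; with that myeloid score Cd8b1 was 0.15, Bcl11b 0.21 and Ccl5 0.00084. In this fit uncalled genes changed sign 35 times over all alternatives, in 20 genes, and Fasl never did. Its share of all probe sets called higher was 0.873%, and it was 0.141% with the block and 1.93% with the myeloid score. With each array left out that share ran from 0.2% to 1.06%. The Xist split gave 8, and 1 to 10 when each array was left out. There 1.86% of all probe sets were called higher, and 0.0888% to 2.19% with each array left out. The block leaves 3 residual degrees of freedom (2 with the score). Deviations of same-numbered arrays correlated at 0.24, 0.28, -0.03 and -0.08. The arrays numbered 1 share an Xist class, as do those numbered 2, while those numbered 3 and 4 do not. These correlations therefore cannot decide whether same-numbered arrays were prepared together. Without detection calls, signals below or near the filter level of 42.9 bound no difference. These include Cd4 and Gata3, Cd6 on several arrays, and Cd3e, Gzmk, Trat1, Txk and Gzmb on some arrays. Fasl read 59.2, 115, 59.7 and 45.4 on wild-type arrays, not far above that level. With 4 arrays a group, the precision of all differences is limited. The causes of these shifts were not tested.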

Other observations

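Macrophage genes differed from each other on these arrays. Of 18 monocyte, macrophage and dendritic cell markers, 1 (Spic) was called higher with genotype alone and none lower (limma). Over all probe sets, 2.01% were called higher and 1.51% lower. The difference was above 0 for 11 of the 18. Spic, a transcription factor of red pulp macrophages that B cells can also transcribe, had signals of 88.8, 240.3, 84.9 and 154 on wild-type arrays, against 447, 595, 560.5 and 444 on Irf4 null arrays and rose by 1.84 ± 0.27 (limma, adjusted p = 0.00395). Vcam1, an adhesion molecule of splenic macrophages, read 205, 994, 333 and 327 on wild-type, then 121, 413, 836 and 389 on Irf4 null arrays, and C1qa, a complement subunit made by macrophages, read 162, 383, 143 and 191 on wild-type, then 59.8, 164, 323 and 108 on Irf4 null arrays. Both overlapped between genotypes, with differences of -0.10 ± 0.54 and -0.51 ± 0.42 from genotype alone (limma, adjusted p = 0.953 and 0.607). The score of other T and NK cell markers is itself higher in Irf4 null. Given that score Vcam1 was lower in Irf4 null (difference -1.56 ± 0.24), as was C1qa (-1.58 ± 0.27) (limma, adjusted p = 0.0101 and 0.0156). They were the 2 of 18 markers called lower there, against 0.529% of all probe sets, and 5 of the 18 had a difference above 0. The platelet chemokine gene Ppbp read 1123, 1654, 1189 and 1528 across wild-type and 3473, 1860.0, 2476 and 2046 across Irf4 null arrays and rose by 0.81 ± 0.19 (limma, adjusted p = 0.0415), highest on Irf4 null array 1.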
